A study of Mus musculus with 4 samples.

Results

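To examine the p53 pathway in thymocytes with and without Tox4, 9 genes were followed in TTchem-seq data: Trp53, which encodes the transcription factor p53, its negative regulators Mdm2 and Mdm4, and the 6 genes Ccng1, Zmat3, Phlda3, Aen, Trp53inp1 and Dglucy, listed as targets of p53 in mouse cells. The genes were chosen by name, with earlier results of these data known, and all 9 were found among the 24984 genes of the deposited count table. TTchem-seq labels RNA synthesised during a short pulse of 4-thiouridine (4sU) and sequences the labelled fragments, so the signal over a gene, introns included, measures its transcriptional output rather than its stored mRNA. The cells were CD4+CD8+ double positive (DP) thymocytes, the stage at which the T cell receptor alpha chain is rearranged and tested. There were 2 wild-type (WT) libraries, of genotype Tox4;F/F, and 2 conditional knockout (cKO) libraries, of genotype Tox4;F/F;Lck+. Both groups therefore carried loxP-flanked Tox4 alleles, and the knockout group also carried a Cre transgene that, per the study's methods, is driven by the proximal Lck promoter and removes exons 4 to 6 in T lineage cells. The methods describe littermates matched by sex, on a C57BL/6 background and 6 to 8 weeks old. All libraries were 4sU labelled in culture. Tox4 is an HMG box protein associated with the PTW/PP1 phosphatase complex, which acts on RNA polymerase II.

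In background terms, p53 is made continuously and destroyed quickly, because the ubiquitin ligase Mdm2, aided by its relative Mdm4, marks it for the proteasome. DNA damage, nucleolar stress or oncogene activity activates kinases that release p53 from this control, and p53 then binds paired decamers near its targets and increases their transcription, Mdm2 among them. DP thymocytes are known for dying readily by a p53 dependent route after irradiation, and cells that break and rejoin their receptor genes rely on the same damage signalling. Since most of this control acts on the p53 protein, RNA output of the targets, rather than of Trp53 itself, is the usual readout of its activity.

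To show which of the 9 genes carry the letters bound by p53, the promoter windows of RefSeq on GRCm38.p6, from 250 bases before to 50 bases after each annotated start, were searched for the p53 decamer. This motif reads the same way on both strands, so 1 search covered both. Windows were found for 7 of the 9 genes, and Zmat3 and Trp53inp1 were not matched. An exact decamer was present in 4 of these 7 genes, Trp53, Mdm2, Ccng1 and Aen, whereas 2582 of the 27025 genes with a window (9.55%) held one in any of their windows. The Ccng1 window also held a complete site of 2 adjoining decamers with 1 mismatch. Under a looser rule, with up to 13 bases between the decamers and up to 1 mismatch in each, 835 of the 27025 genes (3.09%) held a pair. The sequences, with the decamers in capitals, are printed for the 4 genes with an exact decamer and, for comparison, for Dglucy, the gene that was called between genotypes:
Ccng1, paired site, chr11:40755462-40755481, minus strand: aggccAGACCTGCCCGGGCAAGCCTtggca
Mdm2, exact decamer, chr10:117710935-117710944, minus strand: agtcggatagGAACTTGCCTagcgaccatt
Aen, exact decamer, chr7:78895937-78895946, plus strand: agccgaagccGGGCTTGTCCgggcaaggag
Trp53, exact decamer, chr11:69580284-69580293, plus strand: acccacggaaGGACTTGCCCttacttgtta
Dglucy, 1 mismatch, chr12:100778914-100778923, plus strand: caatcatcatGGCCATGCCTttgtgtcatg
Of the 2 windows of Mdm4, 1 held 2 decamers with 1 mismatch each and no exact one. The other window of Mdm4 held neither form, as was the case for the window of Phlda3. Within the gene spans, the complete site was read out for the 7 genes above only, so Zmat3 and Trp53inp1 were left out. Mdm4 held 3 paired sites with at most 1 mismatch, 2 of them overlapping, all in an intron. Of the genes within 1.5-fold of the length of Mdm4, 8.35% held at least 1 such site and 0.077% held as many as 3. Ccng1 held 1 paired site in an intron, at chr11:40754936-40754955, and 1.2% of genes of like length held one:
Ccng1, intronic paired site, minus strand: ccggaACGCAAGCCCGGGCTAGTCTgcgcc
Mdm2 held 1 in an exon, against 4.07% of genes of like length. The spans of Trp53, Phlda3, Aen and Dglucy held 0, and for a gene as long as Dglucy the share with a site was 16.2%. A match is a stretch of letters and no measure of binding, and p53 occupancy was not measured here.

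The table held between 38429786 and 48690591 fragments per library, and 11625 genes had a mean of at least 1 CPM (fragments over a gene relative to all fragments of its library), the level required for a call. A call also required a DESeq2 adjusted p-value under 0.05 and at least a 1.2-fold change, and 249 genes (2.14% of the 11625) were called higher and 182 (1.57%) lower in cKO. The deleted gene, Tox4, was at 74.0 and 70.3 CPM in WT and at 59.3 and 57.2 CPM in cKO. On the log2 scale the difference was -0.31 (SE 0.0998) over the whole gene, not the deleted exons alone, and its adjusted p was 0.0453 by DESeq2 and 0.153 by edgeR. All 10 markers of DP thymocytes passed the level filter, with a summed level between 9062 and 10428 CPM, and Cd8a and Rag1 were called lower in cKO. The 6 markers of mature single positive cells summed to 438 to 509 CPM, and how the DP cells were purified is not stated for this assay. Markers of B cells, myeloid cells, red cells and thymic epithelium summed to at most 10.1, 13, 0.805 and 1.13 CPM. The 8 proliferation genes summed to 299 CPM in WT replicate 1 and to between 476 and 581 CPM in the other 3 libraries, with 0 called. Xist, which is transcribed from the inactive X chromosome of female cells, had 172 CPM in WT replicate 1 and 2.36 CPM or less in the other WT library and both cKO libraries. This value goes against the matching by sex that the methods describe, and WT replicate 1 may differ in sex from the other 3 libraries. In bulk libraries a smaller share of cells with a transcript cannot be told apart from lower output per cell.

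Of the 9 genes, 8 passed the level filter and 1 of these, Dglucy, was called, in the direction of higher output in cKO. The other 7 tested genes were not called, and 5 of the 8 lay above and 3 below equal output, with a median log2 fold change of 0.02 against 0.00 over the 11625 genes. The cKO libraries were both above the WT libraries for 1 of the 8, Dglucy, where 24.9% of all tested genes had this pattern, and both below for 1, Trp53, where 24.0% had it. The members were also close between replicates. Their median absolute log2 difference between replicates was 0.04 in WT and 0.09 in cKO, against 0.11 and 0.12 over all tested genes. The members were not matched to these genes by level, and Trp53, Mdm2, Mdm4 and Trp53inp1 had means between 107 and 249.8 CPM.

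**Figure D1:**
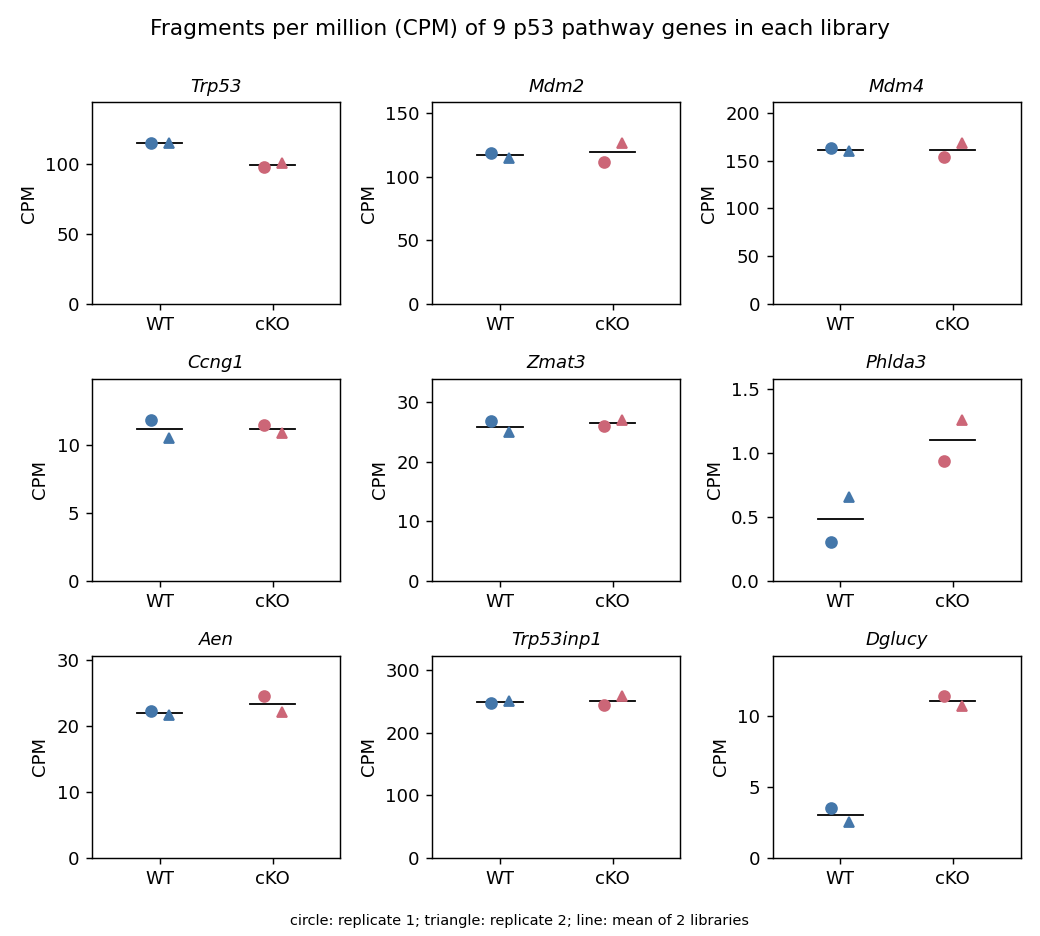
CPM (vertical axes, each starting at 0) of the 9 genes in the 2 WT and 2 cKO libraries, with circles for replicate 1, triangles for replicate 2 and a line at each mean. For Dglucy and Phlda3 the cKO points lie above both WT points, for Trp53 they lie below, and for the other 6 genes the groups overlap.

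Trp53 itself (GRCm38 chromosome 11, 69580359 to 69591873, plus strand) was at 115 CPM in WT replicate 1, 115 CPM in WT replicate 2, 97.4 CPM in cKO replicate 1 and 100.2 CPM in cKO replicate 2. The 2 WT libraries were nearly equal and both cKO libraries were lower, from 3743 to 5581 fragments per library. WT averaged 115 ± 0.151 CPM (SD, n = 2), and cKO averaged 98.8 ± 1.98 CPM (SD, n = 2). This is a log2 fold change of -0.22 (SE 0.0871), or a ratio of 0.860 with a 95% interval of 0.764 to 0.968. Trp53 was not called, since the DESeq2 adjusted p was 0.159, and it was 0.211 with edgeR and 0.213 with limma voom. The log2 fold change ranged from -0.24 to -0.19 when each library was left out in turn. Wrap53, which begins 109 bp away on the opposite strand and encodes a telomerase and Cajal body protein, was at 43.4 and 46.4 CPM in WT and at 52.8 and 46.8 CPM in cKO, with a log2 fold change of 0.15 (DESeq2 adjusted p = 0.654). The genes whose centred log2 profile over the 4 libraries was most like that of Trp53 were Tube1, Atg16l2 and Gpi1, with root mean square differences of 0.00613, 0.00669 and 0.00879. Such likeness was common, since 2618 of 11624 genes lay within 0.1 of Trp53, whose profile was nearly flat.

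The regulators of p53 did not differ by more than their replicates. Mdm2 (chromosome 10, 117688875 to 117710758, minus strand), the ubiquitin ligase and itself a target, was at 119 and 115 CPM in WT and at 112 and 127 CPM in cKO. The cKO libraries enclosed the WT values, and the ratio of cKO to WT was 1.02, with a 95% interval of 0.896 to 1.16 (DESeq2 adjusted p = 0.956). Mdm4 (chromosome 1, 132986105 to 133030587, minus strand), which binds and inhibits the p53 activation domain, was at 163 and 160.0 CPM in WT and at 154 and 169 CPM in cKO. Here too the cKO libraries enclosed the WT values, and the ratio was 0.998, with a 95% interval of 0.888 to 1.12 (DESeq2 adjusted p = 0.995). For both genes the interval excluded a change of 1.2-fold in either direction. Each rested on at least 4315 fragments per library.

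Among the targets linked to arrest, Ccng1 and Zmat3 overlapped between genotypes. Ccng1 (chromosome 11, 40748552 to 40755286, minus strand) encodes cyclin G1, which recruits a phosphatase to Mdm2, and had the paired promoter match printed above. It was at 11.9 and 10.5 CPM in WT and at 11.5 and 10.9 CPM in cKO, a ratio of 0.996 with a 95% interval of 0.763 to 1.3 (DESeq2 adjusted p = 0.995). With 434 to 512 fragments per library, the interval of Ccng1 reached past 1.2-fold on both sides. Zmat3 (chromosome 3, 32334794 to 32365665, minus strand), an RNA binding protein that acts on splicing, was at 26.8 and 25 CPM in WT and at 26.0 and 27.1 CPM in cKO. Its ratio was 1.02, with a 95% interval of 0.849 to 1.23 (DESeq2 adjusted p = 0.962). A transcript on the other strand, 4930429B21Rik, overlaps Zmat3 and had at most 0.370 CPM.

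The targets linked to cell death gave overlapping libraries for Aen and Trp53inp1 and separated libraries for Phlda3. Trp53inp1 (chromosome 4, 11156441 to 11174379, plus strand), a nuclear protein that cooperates with kinases of p53 and takes part in autophagy, was at 247 and 251 CPM in WT and at 244 and 258 CPM in cKO. It had the narrowest interval of the 9, with a ratio of 1.01 between 0.907 and 1.12 (DESeq2 adjusted p = 0.980). Aen (chromosome 7, 78895927 to 78911209, plus strand), an apoptosis enhancing nuclease, was at 22.3 and 21.7 CPM in WT and at 24.5 and 22.2 CPM in cKO. The ratio was 1.06, with a 95% interval of 0.869 to 1.29 (DESeq2 adjusted p = 0.886), and cKO replicate 2 lay between the WT libraries.

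Phlda3 (chromosome 1, 135766085 to 135769134, plus strand), a small protein that competes with Akt for membrane lipids, was barely transcribed. It was counted by 13 and 32 fragments in WT and by 36 and 50 in cKO, that is 0.305, 0.657, 0.937 and 1.26 CPM. Both cKO libraries were above both WT libraries, but the WT libraries differed by 2.15-fold from each other. The Wilson 95% intervals, which cover counting error only, were 0.178 to 0.522 CPM and 0.466 to 0.928 CPM in WT, and 0.677 to 1.3 CPM and 0.954 to 1.66 CPM in cKO. WT replicate 2 overlapped cKO replicate 1, and the other pairs of a WT and a cKO library did not overlap. The mean of 0.789 CPM was under the level required for a call, and the log2 fold change of 1.18 (95% interval -0.25 to 2.61) had an edgeR adjusted p of 0.400. It was 0.73 when WT replicate 1 was left out and 1.85 when WT replicate 2 was left out.

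Dglucy (chromosome 12, 100779057 to 100872610, plus strand) stood apart from the other 8. It encodes D-glutamate cyclase, a mitochondrial enzyme that converts D-glutamate. It was at 3.54 CPM in WT replicate 1, 2.53 CPM in WT replicate 2, 11.4 CPM in cKO replicate 1 and 10.7 CPM in cKO replicate 2. Both cKO libraries were far above both WT libraries, and the closest Wilson 95% intervals were 3.02 to 4.15 CPM in WT replicate 1 and 9.72 to 11.8 CPM in cKO replicate 2. The mean rose from 3.03 ± 0.719 CPM (SD, n = 2) to 11.1 ± 0.519 CPM (SD, n = 2), on 123 to 439 fragments per library. The genotypes differed by 1.87 on the log2 scale (SE 0.261), a ratio of 3.65 with a 95% interval of 2.56 to 5.20 (DESeq2 adjusted p = 4.78e-10).

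The call of Dglucy was made by each test run, with adjusted p-values of 0.0296 by edgeR and 0.0292 by limma voom. It was also made with each library left out in turn, in fits where the genotype with 1 library was assumed to vary like the other, and there the log2 fold change ranged from 1.65 to 2.12 and the DESeq2 adjusted p was at most 0.0021. Rps6ka5, a kinase gene 53937 bp upstream, was not called and had a log2 fold change of 0.14 (DESeq2 adjusted p = 0.417). The genes with the centred log2 profile nearest to that of Dglucy were Casc1, Tspoap1 and Lrmda, at root mean square differences of 0.146, 0.184 and 0.184. Casc1 was at 13.8 and 10.6 CPM in WT and at 34.8 and 32.2 CPM in cKO, and Tspoap1 at 18.3 and 17.0 CPM in WT and at 53 and 45.1 CPM in cKO.

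**Figure D2:**
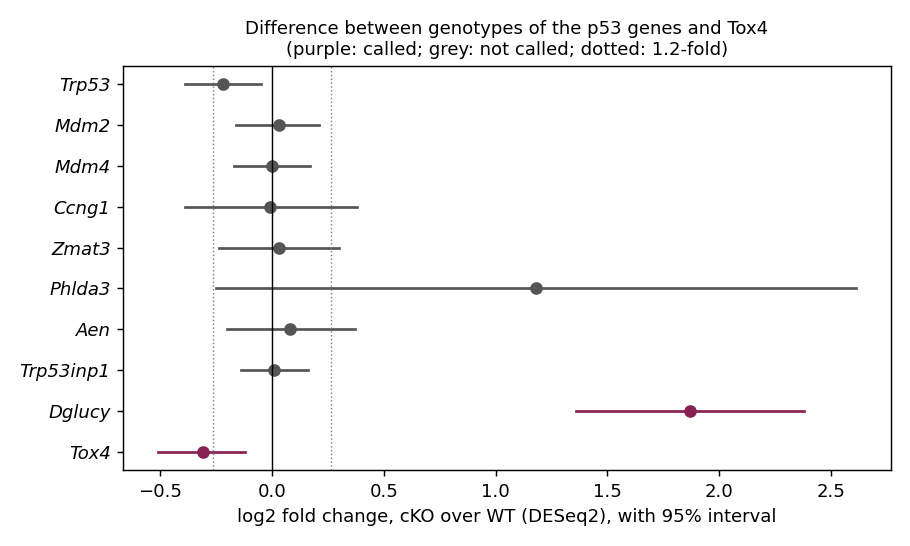
Log2 fold change of cKO over WT (horizontal axis) with its 95% interval for the 9 genes and Tox4, from DESeq2 on 2 libraries per genotype, with called genes in purple and dotted lines at 1.2-fold. The interval of Dglucy, 1.36 to 2.38, lies wholly right of the lines, those of Mdm2, Mdm4 and Trp53inp1 lie between them, and that of Phlda3 is the widest, from -0.25 to 2.61.

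Levels of the 9 genes, compared as CPM per kb of gene span so that length does not enter, ran from 13.9 for Trp53inp1 to 0.0753 for Dglucy. Trp53inp1 was highest, with a level of 13.9 CPM per kb and between 13.6 and 14.4 in the 4 libraries, and stood at the 96.1 percentile of the tested genes. Trp53 followed at 9.27 CPM per kb and the 93.8 percentile, with 9.96 ± 0.0131 (SD, n = 2) in WT and 8.58 ± 0.172 (SD, n = 2) in cKO. Both genes were thus among the more strongly transcribed in these cells.

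Mdm2 and Mdm4 came next, at 5.40 and 3.63 CPM per kb, and no library of one overlapped a library of the other. Ccng1, at 1.66, and Aen, at 1.48 CPM per kb, shared their range, 1.56 to 1.77 against 1.42 to 1.6, although Ccng1 was the higher of the pair in each of the 4 libraries. Zmat3 was at 0.850 CPM per kb, Phlda3 at 0.259 and Dglucy at 0.0753. The ranges of Phlda3 and Dglucy also overlapped across genotypes, with Phlda3 at 0.1 in WT replicate 1 and Dglucy at 0.122 in cKO replicate 1, but within each library Phlda3 was higher. Dglucy is 93.6 kb long, and even in cKO its mean level per kb, 0.118, was the lowest of the 9, against 0.0324 in WT. Its difference between genotypes therefore took place near the bottom of the range, at the 6.84 percentile of the tested genes.

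**Figure D3:**
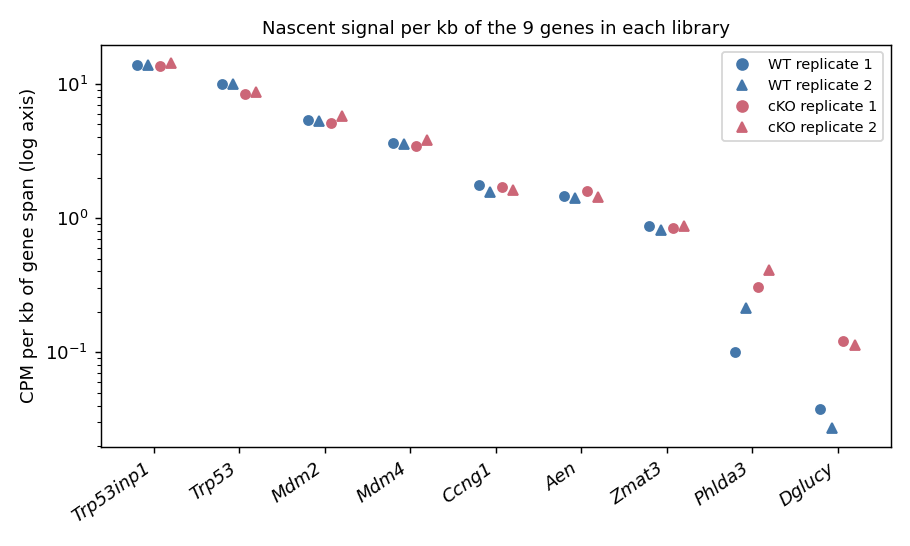
Level in CPM per kb of gene span (vertical axis, logarithmic) of the 9 genes in each of the 4 libraries, ordered by mean from Trp53inp1 at 13.9 to Dglucy at 0.0753. WT is blue and cKO red, and the ranges over libraries overlap for Ccng1 with Aen and for Phlda3 with Dglucy.

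To place the 9 genes in the wider pathway, 6 lists with 76 genes were read from the same fit, and 69 of the genes passed the level filter. Of these, 5 were called (3.71% of all tested genes were), 4 higher and 1 lower in cKO, and the median log2 fold change was 0.04. The calls were Chek1, Pidd1, Pvt1 and Dglucy, which rose, and Btg2, which fell. Over the 64 genes besides the 9, 40 lay above and 24 below equal output with a median of 0.05, where 5837 of the 11625 tested genes lay above. With edgeR or limma voom, 1 of the 5 calls was made, that of Dglucy.

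The upstream kinases and sensors, which detect damage and phosphorylate p53, lay higher in cKO for 10 of 11 tested genes, the median on the log2 scale being 0.17, and both cKO libraries were above both WT libraries for 8 of the 11 (72.7%, against 24.9% of all tested genes). Of the 11, 1 was called. Chek1, the checkpoint kinase that acts at stalled replication forks, was at 5.33 and 6.47 CPM in WT and at 11.8 and 9.51 CPM in cKO, a rise of 0.85 on the log2 scale (SE 0.238, DESeq2 adjusted p = 0.0135). The groups did not overlap, but the edgeR adjusted p was 0.124, and Chek1 was called in 0 of the 4 fits that left out a library. Hipk2, a kinase that phosphorylates p53 in its activation domain, was at 139 and 143 CPM in WT and at 178 and 159.9 CPM in cKO (log2 fold change 0.26, DESeq2 adjusted p = 0.0663). Atm, the kinase activated by double strand breaks, had a log2 fold change of 0.22 (DESeq2 adjusted p = 0.409). The median of the list became 0.11 when WT replicate 1 was left out, 0.27 when WT replicate 2 was left out and 0.12 with a trend on gene length removed, the genes of this list having a median length of 57.1 kb against 22.6 kb. WT replicate 1 also had the lowest summed level of proliferation genes, 299 CPM, and its part in the list was not tested.

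In the ubiquitin regulators of p53, 0 of 13 tested genes were called and the median was -0.00. Trim24, a ubiquitin ligase, was at 118 and 119 CPM in WT, at 242 CPM in cKO replicate 1 and at 141 CPM in cKO replicate 2. Its log2 fold change of 0.69 thus rested largely on 1 library (DESeq2 adjusted p = 0.412). Rfwd3 had a log2 fold change of 0.25 (DESeq2 adjusted p = 0.270). Cdkn2a, whose Arf product inhibits Mdm2, was at a mean of 0.0287 CPM and was not tested. In the cofactors and modifiers, 0 of 14 genes were called with a median of 0.03, and the smallest p-values belonged to Ep300 (log2 fold change 0.12, DESeq2 adjusted p = 0.559), an acetyltransferase, and Ppp1r13b (log2 fold change -0.10, adjusted p = 0.659), which steers p53 to death genes. Before adjustment, Rfwd3 alone among the genes of both lists had a DESeq2 p-value under 0.05, and edgeR and limma voom also called 0.

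The arrest targets were balanced, with 5 of 10 genes above and 5 below equal output and a median of 0.01. Btg2, an antiproliferative cofactor of mRNA deadenylation, was at 368 and 436 CPM in WT and at 335 and 313 CPM in cKO. It fell by 0.31 on the log2 scale (SE 0.0917, DESeq2 adjusted p = 0.020), was not called by edgeR (adjusted p = 0.211) and was called in 1 of the 4 fits that left out a library. Cdkn1a, the p21 inhibitor of cyclin dependent kinases and a classical p53 target, was at 1.64 and 3.37 CPM in WT and at 3.25 and 5.03 CPM in cKO. The libraries of Cdkn1a overlapped, and its log2 fold change of 0.72 had a 95% interval of -0.10 to 1.54 (DESeq2 adjusted p = 0.460). Plk3, a polo-like kinase, had a log2 fold change of -0.39 and no adjusted p, at a mean of 2.09 CPM.

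The death targets had a median of 0.05 over 10 tested genes, and 1 was called. Pidd1, the death domain protein that assembles the PIDDosome with caspase-2, was at 14.9 and 23.4 CPM in WT and at 28.0 and 31.0 CPM in cKO. It rose by 0.62 on the log2 scale (SE 0.192, DESeq2 adjusted p = 0.0339), but the WT libraries differed by 1.57-fold and the edgeR adjusted p was 0.255. Its log2 fold change was between 0.32 and 0.99 when a library was left out, with a call in 1 of 4 fits. Apaf1, the scaffold of the apoptosome, was at 55.5 and 55.4 CPM in WT and at 66.3 and 65.1 CPM in cKO (log2 fold change 0.24, DESeq2 adjusted p = 0.188). Pmaip1, a BH3-only protein, had a log2 fold change of -0.38 (DESeq2 adjusted p = 0.791).

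Of the repair and metabolism targets, 8 of 11 tested genes lay above equal output, with a median of 0.06, and Dglucy and Pvt1 were called. Pvt1, a long noncoding RNA next to Myc, was at 24.9 and 21.7 CPM in WT and at 33.0 and 36.4 CPM in cKO. It rose by 0.58 on the log2 scale (SE 0.140, DESeq2 adjusted p = 0.00217), with an edgeR adjusted p of 0.108 and a call in 1 of the 4 fits that left out a library. Sesn2 and Sesn1, which restrain mTORC1 under stress, had log2 fold changes of -0.25 and 0.11 (DESeq2 adjusted p = 0.532 and 0.611). The 3 target lists together held 3 higher and 1 lower call among 31 tested genes, where 2.14% and 1.57% of all tested genes were called higher and lower, and Dglucy was the one also called by edgeR and limma voom.

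**Figure D4:**
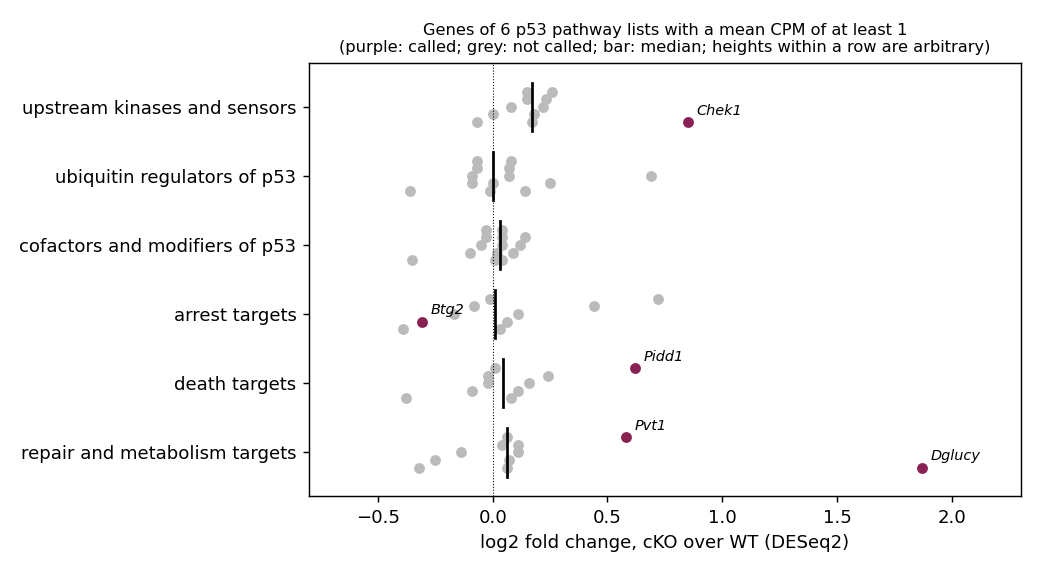
Log2 fold change of cKO over WT (horizontal axis) for the 69 tested genes of the 6 p53 pathway lists, 1 point per gene, with called genes in purple and named, and a bar at each list's median. The medians lie between -0.00 and 0.17, and Dglucy at 1.87 lies apart from all other points.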

How the data were processed

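TTchem-seq libraries of DP thymocytes from 2 WT and 2 cKO samples were grouped by their titles. According to the study's methods and the submitters' processing notes, reads were filtered with fastp 0.13.1 and aligned with STAR 2.7.9a to GRCm38, and featureCounts 1.6.1 is also listed. The deposited table held expected counts per gene over the whole gene span, introns included, of which 8.61% were fractional, and the authors pooled no replicates. Strand use and removal of marked duplicates were not stated for this table, no molecular identifiers were described, and no spike-in scaling was applied. The labels' library text describes poly(A) capture, the methods strand-specific libraries after rRNA depletion.

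Expected counts were rounded to whole numbers, and CPM were computed from the totals of the table. The main test was the DESeq2 1.42.0 Wald test on all genes, as in the study's methods, with Benjamini-Hochberg adjustment over the genes of the whole table that passed DESeq2's independent filtering at its default target of 0.1. Genes that did not pass have no adjusted p. Alternatives were edgeR 4.0.16, limma 3.58.1 voom, other size factors, other low count filters, a fold change of 1.5, removal of a length trend, the replicate number as a block, and each library left out, in R 4.3.3. Other steps used matplotlib 3.10.9, scipy 1.17.1, numpy 2.4.6 and pandas 2.3.3 in Python 3.11.15. Procedures were tested on simulated data. Intervals of single CPM values are Wilson intervals and cover counting error only. P-values rest on the spread between these samples, 2 per group, with the spread of each gene estimated partly from other genes.

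The 9 genes, the lists and the tests were chosen with earlier results of these data known. Named genes were the 9, Tox4, every called gene of the lists, the 2 genes per list with the smallest unadjusted p not called, and the 3 genes most like Trp53 and like Dglucy by the root mean square difference of centred log2(CPM + 0.5). Genes named besides these (neighbouring genes, Xist, Cdkn2a and cell type markers) were chosen as context. Same-numbered libraries were checked for pairing: the correlation of their deviations from the group means was -0.03 across 11625 genes.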

Additional observations from a re-analysis of the deposited data

How the results depend on the processing

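The number of libraries, 2 per group, limited the precision of the values, and Phlda3 also rested on few fragments. The count of called genes among the 9 was 1 under every alternative run. The count of called genes over the 6 lists, 5 in the main analysis, was 1 with edgeR, 1 with limma voom and 3 with a fold change of at least 1.5, and ranged from 1 to 3 with a library left out, being 1 without cKO replicate 1, 2 without cKO replicate 2, 2 without WT replicate 2 and 3 without WT replicate 1. With the replicate block it was 1 by DESeq2 and 1 by edgeR. The libraries share only a number, the correlation of same-numbered deviations being -0.03, and over all genes the replicate block called 193. edgeR called 48 genes higher and 10 lower over all genes. The cause of these differences was not tested. By CPM without length, 3 of the 9 genes kept their place in the order of levels.

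Of the log2 fold changes of the 9 genes under single alternatives, 106 kept their direction and side of the threshold and 10 reversed, all of the latter for genes near 0 and not called. Ccng1 was at 0.01 with the length trend removed. With a library left out, Phlda3 ranged from 0.73 to 1.85, Mdm2 ranged from -0.07 to 0.12, Mdm4 from -0.08 to 0.07, Ccng1 from -0.09 to 0.08, Zmat3 from -0.01 to 0.07 and Trp53inp1 from -0.04 to 0.06.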
